A study of Mus musculus with 6 samples.

Results

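The 10 genes described here carry out the uptake of salt and water in the absorptive cells of the colon. They were chosen by symbol for that task, as its channels, exchangers, pump and enzymes, out of 19936 genes measured. The choice was made with earlier results of these data known, so shares of all genes are given below as background and not as an independent test. Each of the 10 genes was read by 1 probe set, the only one whose platform annotation named that gene alone. They are the epithelial sodium channel subunit genes Scnn1a, Scnn1b and Scnn1g, the water channel gene Aqp8, the anion exchanger gene Slc26a3, the sodium-hydrogen exchanger genes Slc9a2 and Slc9a3, the proton pump gene Atp12a and the carbonic anhydrase genes Car1 and Car4. Their transcripts were measured on Affymetrix arrays in colon epithelium of male mice aged 8 weeks on the C57BL/6J background, on 3 arrays labelled wild type and 3 labelled Sel1L knockout. The knockout mice (Sel1LΔIEC) had loxP sites around exon 6 of Sel1L, which a Cre recombinase driven by the villin-1 promoter removes in intestinal epithelial cells. Their floxed allele came from the KOMP line Sel1ltm1e(KOMP)Wtsi, whose lacZ-neo cassette had been taken out with FLPe. The labels give no Cre or loxP status for the wild type mice, and do not say whether an array stands for 1 mouse or for pooled mice. Sel1L is the adaptor of a ubiquitin ligase that clears misfolded proteins from the endoplasmic reticulum (ER). Levels are log2 values made with RMA, a method that subtracts background, brings arrays to a common scale and combines the probes of each set, and a difference of 1 on this scale is a doubling of signal.

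Colonocytes take up sodium by an electrogenic route, in which the sodium channel opens to the lumen, and by an electroneutral route, in which sodium-hydrogen exchange runs beside chloride-bicarbonate exchange. Carbonic anhydrases supply the protons and bicarbonate for those exchangers, the apical proton pump takes up potassium, the basolateral sodium pump drives the whole process, and water follows the salt. The channel consists of an alpha, a beta and a gamma subunit, encoded by Scnn1a, Scnn1b and Scnn1g, and in the distal colon aldosterone is known to raise the beta and gamma transcripts.

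Of the 10 genes, 3 fell in the knockout and none rose, at an adjusted p under 0.05 in limma's test over all genes (called, from here on), against 0.712% of all genes called lower and 1.63% called in either direction. They were Atp12a, Aqp8 and Scnn1b. When all probe sets were tested, also those that name several genes or none, only Atp12a was called (adjusted p = 0.044), and Scnn1b and Aqp8 were not (0.086 and 0.11). With the replicate number added to limma's model as a block, again only Atp12a was called (adjusted p = 0.018), and Scnn1b and Aqp8 were not (0.057 and 0.077). In 9 of the 10 genes each knockout array read lower than each wild type array, which held for 7.98% of all genes, and only Car1 had overlapping groups. The same 9 had an unadjusted p under 0.05, as did 5.62% of all genes in that direction. The median change of the 10 genes, as knockout minus wild type, was -0.44, beside 0.02 over all genes, and single changes ran from -0.85 to 0.01. In 4 of them the knockout mean was lower by at least 1.5-fold, as it was in 0.461% of all genes. Because the tissue was measured in bulk, fewer absorptive cells and less RNA per absorptive cell cannot be told apart.

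**Figure D1:**
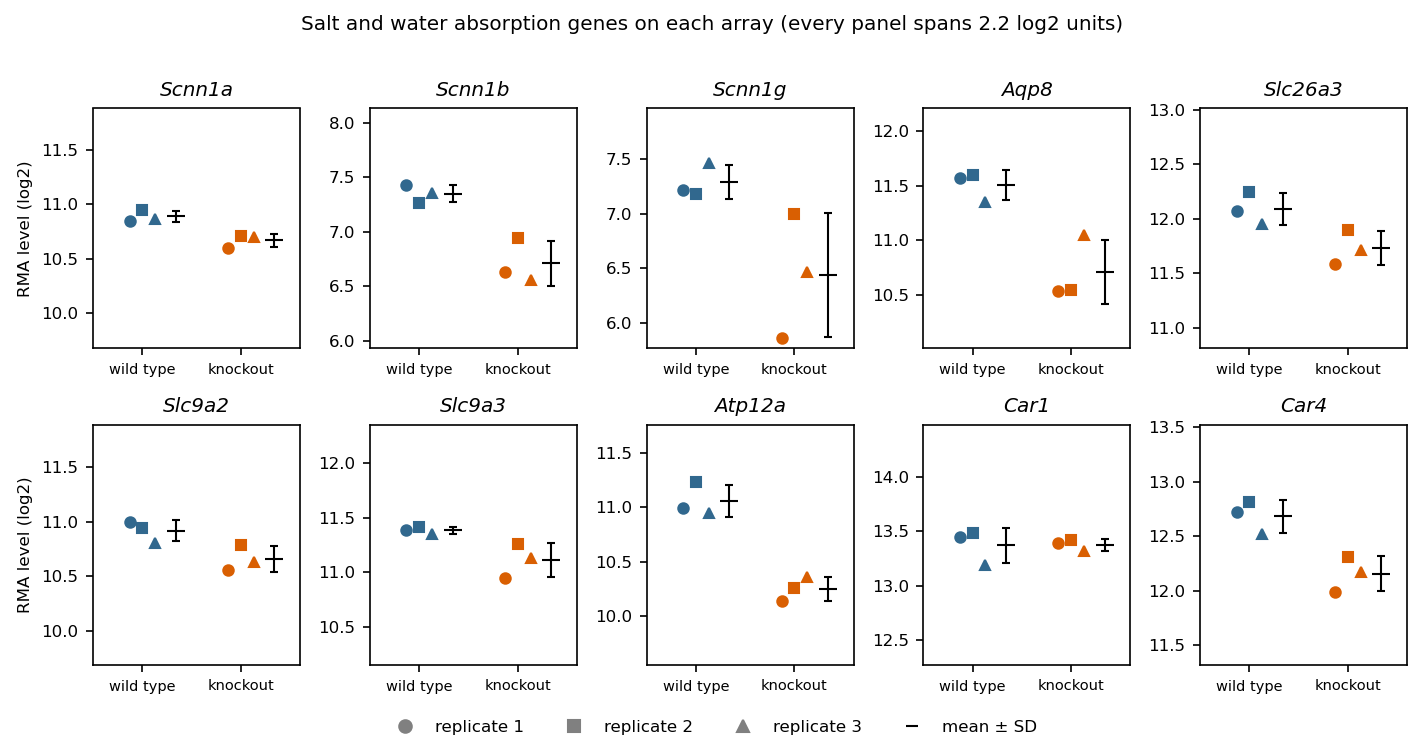
RMA level (log2) of each of the 10 genes on each array, with a symbol for each replicate number and the mean ± SD of each group of 3 arrays beside it. Groups are apart in 9 genes and overlap in Car1, and knockout array 1 gave the lowest Scnn1g level, at 5.86.

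The array from which these levels come was first checked on the deleted gene. Sel1l read 9.45, 9.67 and 9.54 on the wild type arrays and 8.70, 9.06 and 8.66 on the knockout arrays, a change of -0.74 ± 0.11 (SE, adjusted p = 0.018). The exact two-sided permutation p was 0.1, which is the minimum for 3 arrays against 3. The probe set was not placed on the exons, so it does not tell how much of exon 6 was lost. Knockout array 2 had the highest Sel1l level of its group, and it also had the highest level in 8 of the 10 absorption genes. The mean deviation of the 10 genes from their own averages was -0.10 on that array, against -0.39 and -0.21 on knockout arrays 1 and 3. In wild type it was 0.25, 0.29 and 0.16 on arrays 1, 2 and 3. With 3 knockout arrays, no relation between the remaining Sel1l signal and these genes was tested. All 9 colon epithelium markers lay above the array's median gene on every array (Epcam, Cdh1, Krt8, Krt18, Krt19, Krt20, Vil1, Cdx1 and Cdx2). Their summed level ran from 15.15 to 15.23 in wild type and from 15.14 to 15.20 in the knockout. None of the 9 was called, and single markers differed both ways. Epcam and Cdh1 (-0.23 each) read lower on every knockout array (22.2% of the list, beside 7.98% of all genes). Cdx2 (0.28) read higher on every knockout array (11.1%, beside 11.4% of all genes).

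Among the subunits of the sodium channel, Scnn1b fell. It read 7.43, 7.27 and 7.36 in wild type and 6.63, 6.95 and 6.56 in the knockout. The knockout arrays were all lower, by at least 0.32, and array 2 came nearest to wild type. The mean level was 7.35 ± 0.080 in wild type and 6.71 ± 0.21 in the knockout (SD, n = 3 each). Scnn1b thus changed by -0.64 ± 0.10 (SE; limma, adjusted p = 0.025). The knockout signal was 64.3% of wild type. This call depended on the arrays used: it was met in 1 of the 6 fits that left out an array, the one without knockout array 2, and the adjusted p reached 0.11 without knockout array 1.

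Scnn1g, the gamma subunit gene, read 7.22, 7.18 and 7.47 in wild type and 5.86, 6.99 and 6.46 in the knockout. Groups did not overlap, but the knockout arrays spread over 1.13 log2 units, against 0.29 in wild type. The change was -0.85 ± 0.24 (SE), with an interval of -1.40 to -0.30 (95%, limma), and was not called (adjusted p = 0.16). With all arrays it was the largest difference among the 10 genes, but its size hung on single arrays. Without knockout array 2 it was -1.13 and was called (adjusted p = 0.048), and without knockout array 1 it was -0.56 (adjusted p = 0.25), smaller than in Atp12a, Aqp8 and Scnn1b. It was also smaller than in Aqp8 without knockout array 3 (-0.86 against -0.97) and without wild type array 3 (-0.76 against -0.88). On knockout arrays 1 and 3 both Scnn1b and Scnn1g lay below the median of all genes on the array, whereas on the other 4 arrays they lay above it.

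Scnn1a, the alpha subunit gene, read 10.85, 10.95 and 10.87 in wild type and 10.60, 10.71 and 10.70 in the knockout. Its arrays differed little within a group, and the groups were 0.14 apart at their nearest. The change of -0.22 ± 0.062 (SE) was not called (adjusted p = 0.16), and its interval reached from -0.36 to -0.08.

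Whether the subunits changed unequally was tested on the difference between them within each array, and carbonic anhydrases and sodium-hydrogen exchangers were compared in the same way, 5 pairs in all. Scnn1b minus Scnn1a was -3.42, -3.68 and -3.51 in wild type and -3.97, -3.76 and -4.13 in the knockout, groups that did not overlap. The signal of Scnn1b was lower by a further 0.42 relative to Scnn1a (difference of -0.42; exact two-sided permutation p = 0.1, the minimum, and 0.25 adjusted over the 5 pairs). For Scnn1g against Scnn1a the difference was -0.63 (exact p = 0.2, adjusted 0.33), with overlap at knockout array 2. That difference was -0.38 without knockout array 1 and -0.89 without knockout array 2. Scnn1b and Scnn1g differed from each other by 0.21 (exact p = 0.6, adjusted 0.7). No pair could pass 0.05 in this design.

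Scnn1g and Scnn1b are next to each other on chromosome 7 in the RefSeq annotation, with no protein-coding gene between them, and Aqp8 lies further along it. The RefSeq table of build GRCm38.p6 gave a promoter for 6 of the 10 genes. It gave none for the called gene Atp12a, nor for Scnn1a, Slc9a2 and Car1, so no motif was searched in these. For Scnn1b, Scnn1g and Aqp8 the 250 bases before the start are shown. Scnn1b and Aqp8 are shown because they were called, and Scnn1g, the neighbour of Scnn1b, was added after its values were seen. All are on the plus strand: chr7:121864788-121865037 for Scnn1b, chr7:121734229-121734478 for Scnn1g and chr7:123462044-123462293 for Aqp8. Capitals mark a match to CATAAA, a core recognised by the intestinal factors of the CDX family, read on either strand.
Scnn1b: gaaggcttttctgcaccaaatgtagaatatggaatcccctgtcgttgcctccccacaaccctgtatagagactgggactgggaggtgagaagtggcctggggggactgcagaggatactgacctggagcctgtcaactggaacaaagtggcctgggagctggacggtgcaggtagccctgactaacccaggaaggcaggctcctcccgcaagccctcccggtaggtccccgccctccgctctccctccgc
Scnn1g: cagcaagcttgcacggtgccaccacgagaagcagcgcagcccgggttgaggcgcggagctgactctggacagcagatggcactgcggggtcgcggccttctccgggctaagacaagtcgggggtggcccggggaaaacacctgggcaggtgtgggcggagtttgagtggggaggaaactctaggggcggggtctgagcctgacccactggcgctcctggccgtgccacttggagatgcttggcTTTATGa
Aqp8: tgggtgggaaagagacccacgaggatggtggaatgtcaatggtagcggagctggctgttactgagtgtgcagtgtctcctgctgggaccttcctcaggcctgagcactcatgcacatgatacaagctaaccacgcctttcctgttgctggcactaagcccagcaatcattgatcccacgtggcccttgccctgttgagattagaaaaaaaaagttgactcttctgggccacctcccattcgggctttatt

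The CDX core matched once, on the opposite strand, 7 bases before the start of Scnn1g, and 10.8% of 32851 promoter windows of the same length hold it. The other motifs searched on both strands were TGTTCT (steroid receptor core, in 16.1% of windows), TGACGTGG (unfolded protein response element, 0.563%), TGATGNAAN (ATF4 composite element, 3.44%) and CAAAGTCCA (HNF4, 0.384%). The start site motif TATAAA, searched likewise, is in 12.4% of windows. The CDX core and the start site motif share all letters but the first, and no match overlapped another. None of these other motifs matched in the Scnn1b, Scnn1g or Aqp8 window. Among the other windows, that of Slc26a3 held TATAAA, beginning 30 bases before the start. Between Scnn1g and Aqp8 the annotation holds 17 protein-coding genes besides Scnn1b, and all 17 were measured. None was called, 1 had an unadjusted p under 0.05 in limma's test, and their median change was -0.0025, with a range of -0.23 to 0.13. In 3 of the 17 every knockout array read lower than every wild type array, and in 1 higher, beside 7.98% and 11.4% of all genes.

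Aqp8, the water channel of the surface colonocyte, read 11.57, 11.60 and 11.35 in wild type and 10.53, 10.55 and 11.04 in the knockout. Knockout array 3 stood nearer to wild type than the other knockout arrays, and the groups were still 0.30 apart. The mean was 11.51 ± 0.14 in wild type and 10.71 ± 0.29 in the knockout (SD, n = 3 each). Aqp8 fell by 0.80 ± 0.14 (SE) on the log2 scale, to 57.4% of the wild type signal (limma's adjusted p = 0.032). Leaving out array 3 of either genotype kept its call. The call was lost in the other 4 fits with an array left out, where the adjusted p reached 0.13.

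None of 11 other aquaporin genes was called, and 10 of the 11 differences were positive, with a median of 0.09 and a range of -0.02 to 0.18. The smallest p belonged to Aqp12 (0.16 ± 0.059, adjusted p = 0.28) and Aqp5 (0.18 ± 0.081, adjusted p = 0.385). Only 3 of the 11 lay above the array's median gene on all arrays, so most of this family was dim here.

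Atp12a encodes the catalytic subunit of the colonic proton pump, which exchanges protons for potassium at the apical membrane. It read 11.00, 11.23 and 10.95 in wild type and 10.14, 10.26 and 10.36 in the knockout. The nearest arrays of the groups were 0.59 apart, the widest gap among the 10 genes, against a range of 0.28 within wild type and 0.22 within the knockout. The mean went from 11.06 ± 0.15 to 10.25 ± 0.11 (SD, n = 3 each). The resulting change was -0.81 ± 0.092 (SE; limma, adjusted p = 0.0080). That left 57.2% of the wild type signal. Atp12a was the 1 absorption gene called in all 6 fits with an array left out, with adjusted p between 0.014 and 0.042.

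**Figure D2:**
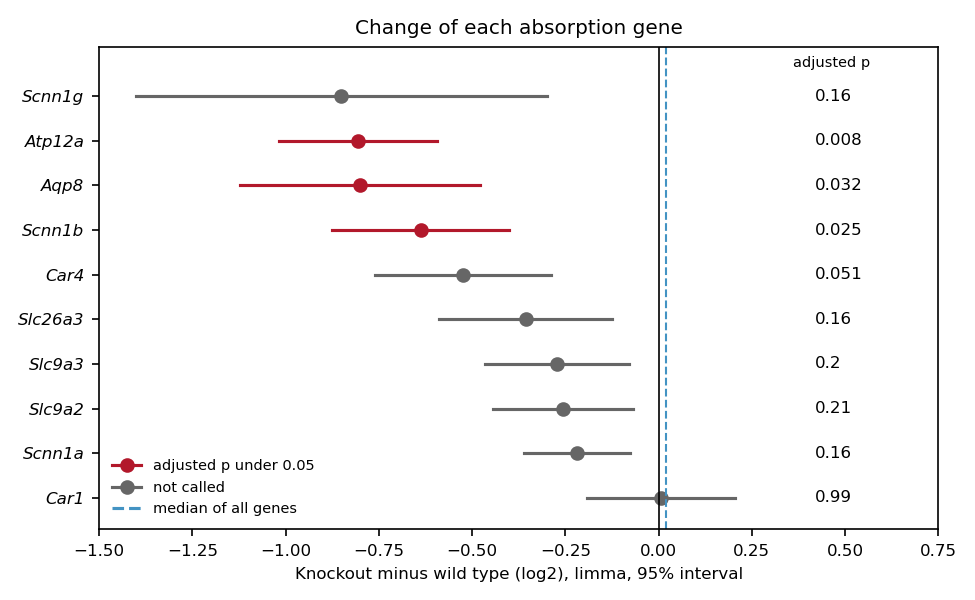
Log2 change of each gene in the knockout, with the 95% interval of limma's test and the adjusted p at the right; red marks called genes and the dashed line the median of all genes (0.02). Atp12a, Aqp8 and Scnn1b are called, Scnn1g has the widest interval, and Car1 sits at 0.01.

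None of the electroneutral exchanger genes was called. Slc26a3, the chloride-bicarbonate exchanger also known as DRA, read 12.07, 12.25 and 11.96 in wild type and 11.59, 11.90 and 11.72 in the knockout. The groups were only 0.06 apart. Its change was -0.36 ± 0.10 (SE) and was not called (adjusted p = 0.16).

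Slc9a3, which encodes the main apical sodium-hydrogen exchanger NHE3, read 11.39, 11.42 and 11.36 in wild type and 10.95, 11.26 and 11.13 in the knockout. Wild type arrays lay within 0.06 of each other, and the knockout arrays spread over 0.31. The change of -0.27 ± 0.084 (SE) was not called (adjusted p = 0.20). Slc9a2, which encodes the exchanger NHE2, read 10.99, 10.94 and 10.81 in wild type and 10.56, 10.79 and 10.63 in the knockout, so that wild type array 3 and knockout array 2 were 0.02 apart. Its change of -0.26 ± 0.082 (SE) was not called either (adjusted p = 0.21). The difference between the changes of Slc9a2 and Slc9a3 was 0.01, with overlapping groups (exact p = 0.7, adjusted 0.7).

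Of the 5 other sodium-hydrogen exchanger genes measured, out of 7 listed, none was called, with changes from -0.08 to 0.11. Slc9a4 (0.11 ± 0.059, adjusted p = 0.50) and Slc9a9 (-0.08 ± 0.067, adjusted p = 0.67) had the smallest p. Of 10 other genes of the SLC26 family none was called and the median was 0.02. Slc26a2, a sulphate transporter, read 11.72, 11.76 and 11.65 in wild type and 11.44, 11.57 and 11.38 in the knockout (-0.25 ± 0.071, adjusted p = 0.16). Slc26a1, another sulphate transporter, differed by -0.48 ± 0.14 (adjusted p = 0.16), at levels below the array's median gene.

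The carbonic anhydrase genes gave unlike values. Car4, which is anchored to the outer face of the apical membrane, read 12.72, 12.81 and 12.52 in wild type and 11.99, 12.31 and 12.17 in the knockout, with the groups 0.21 apart. The knockout signal was 69.5% of wild type, a change of -0.52 ± 0.10 (SE) that missed the threshold (adjusted p = 0.051). Without wild type array 3 it was -0.61 and was called (adjusted p = 0.036). It was also called with each array centred on its median (adjusted p = 0.036) and when the dimmest 25% of genes were dropped (0.035). It was not called in the other 5 fits with an array left out (adjusted p from 0.068 to 0.17), with quantile normalization (0.063) or with all probe sets tested (0.13). Car1, a cytosolic enzyme of colonocytes, read 13.44, 13.48 and 13.19 in wild type and 13.39, 13.42 and 13.31 in the knockout. The groups overlapped fully, and the change was 0.01 ± 0.0865 (SE, adjusted p = 0.99), with an interval of -0.19 to 0.20.

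Car4 minus Car1 was -0.73, -0.67 and -0.67 in wild type and -1.40, -1.11 and -1.14 in the knockout. These values did not overlap, and the difference of -0.53 had the smallest p that the design allows (exact two-sided permutation p = 0.1, and 0.25 adjusted over the 5 pairs). Among 14 other carbonic anhydrase genes none was called, with a median of 0.01 and a range of -0.21 to 0.07. Car9 (-0.21 ± 0.067, adjusted p = 0.21) and Car2, the abundant cytosolic form (-0.17 ± 0.068, adjusted p = 0.34), had the smallest p. In both, every knockout array read lower than every wild type array (14.3% of the list, beside 7.98% of all genes). The groups were 0.099 apart in Car9 and only 0.001 apart in Car2.

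The other parts of the absorption pathway were counted over 138 measured genes of 146, in 11 lists. Of these 1 was called lower and none higher, against 0.712% of all genes lower and 0.918% higher. In 29 of the 138 (21.0%) every knockout array lay below every wild type array, and in 8 (5.80%) above, beside 7.98% and 11.4% of all genes. The called gene was Fxyd4, which encodes a small regulator of the sodium pump known as corticosteroid hormone-induced factor. It read 7.43, 7.58 and 7.60 in wild type and 6.73, 6.80 and 6.83 in the knockout. The arrays of each group lay close together and the groups were far apart. Fxyd4 fell by 0.75 ± 0.069 (SE) on the log2 scale, to 59.7% of the wild type signal (limma's adjusted p = 0.0049), and was called in all 6 fits with an array left out. In the same list of 17 measured genes for the sodium pump and basolateral exit, the potassium channel gene Kcnn4 differed by -0.24 ± 0.067 (adjusted p = 0.15). The pump's beta subunit gene Atp1b1 read 12.67, 12.77 and 12.63 in wild type and 12.46, 12.52 and 12.45 in the knockout (-0.21 ± 0.063, adjusted p = 0.18). The median of that list was -0.06.

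**Figure D3:**
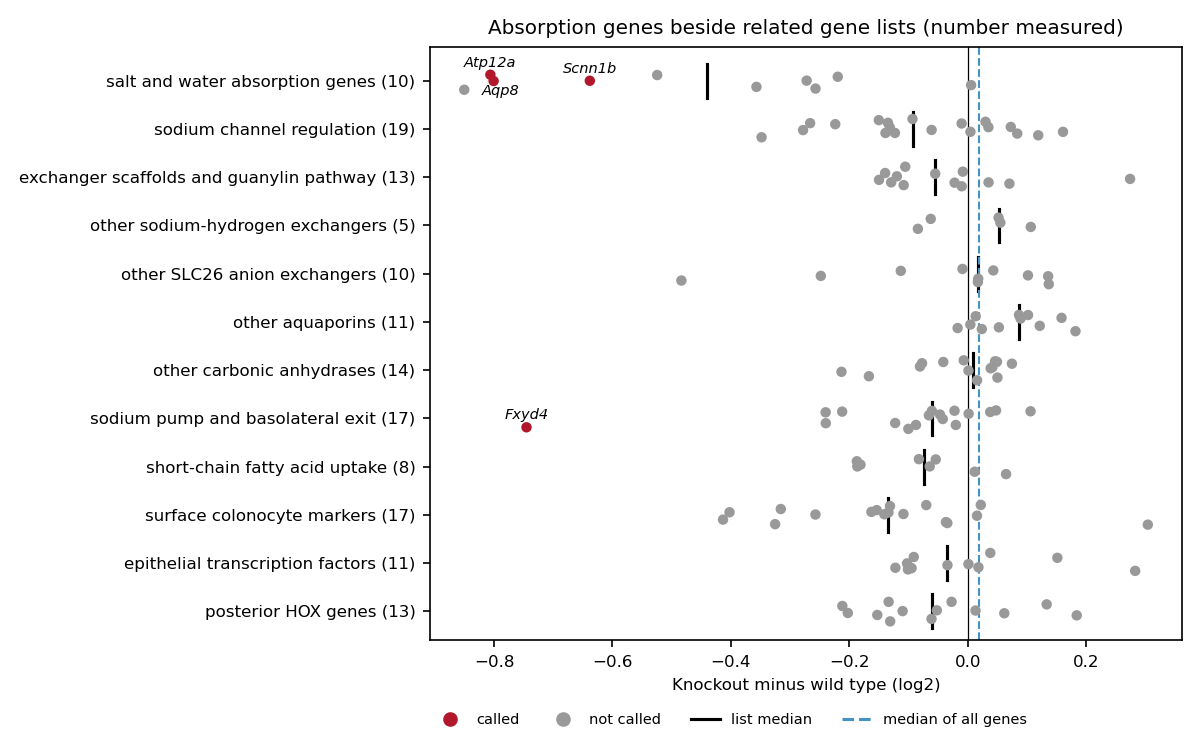
Log2 change in the knockout of each measured gene, for the 10 absorption genes and 11 related lists, with the number measured in brackets, called genes in red and a bar at each list's median. The absorption genes have a median of -0.44, the other lists lie between -0.13 and 0.09, and Fxyd4 is the called gene among them.

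Genes that set the activity of the sodium channel had a median of -0.09, and none of 19 was called. Spint2, an inhibitor of membrane proteases, read 11.93, 11.96 and 11.87 in wild type and 11.61, 11.69 and 11.65 in the knockout (-0.27 ± 0.059, adjusted p = 0.079). Nr3c2, the mineralocorticoid receptor gene through which aldosterone acts, differed by -0.28 ± 0.074 (adjusted p = 0.14). Its arrays read 10.09, 10.14 and 9.96 in wild type and 9.79, 9.88 and 9.71 in the knockout, and the groups did not overlap. Hsd11b2, whose enzyme protects that receptor from glucocorticoids, differed by -0.35 ± 0.093 (adjusted p = 0.14). Exchanger scaffolds and the guanylin pathway, which restrains sodium uptake through cyclic GMP, gave a median of -0.05 with none of 13 called. In that list Gucy2c, the guanylin receptor gene, differed by -0.14 ± 0.064 and the hormone gene Guca2b by -0.15 ± 0.071 (adjusted p = 0.40 and 0.42).

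Short-chain fatty acid uptake, which accompanies sodium absorption in the colon, had a median of -0.07 with none of 8 called. Bsg, the chaperone of monocarboxylate transporters, read between 11.38 and 11.41 in wild type and between 11.20 and 11.23 in the knockout (-0.19 ± 0.054, adjusted p = 0.17). The transporter gene Slc16a3 differed by -0.18 ± 0.074 (adjusted p = 0.34).

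Markers of the differentiated surface colonocyte read lower in part, with a median of -0.13. None of 17 was called, but in 8 (47.1%) the knockout arrays were all below the wild type arrays, beside 7.98% of all genes. Ceacam20 (-0.41 ± 0.099, adjusted p = 0.0985) and the brush border cadherin gene Cdhr5 (-0.32 ± 0.077, adjusted p = 0.11) had the smallest p. The mean deviation of this list was 0.09, 0.18 and -0.06 on the wild type arrays and -0.13, 0.02 and -0.10 on the knockout arrays, so the groups overlapped. Every gene was also expressed relative to the mean of these 17 markers on its array, an alternative chosen after seeing the data. Atp12a, Aqp8, Scnn1b and also Scnn1g were then called, against 0.406% of all genes called lower. The setting moved the change of every gene up by the same amount. The median of the 10 genes was -0.30, beside 0.16 over all genes. In that setting Atp12a changed by -0.67, Aqp8 by -0.66, Scnn1g by -0.71 and Scnn1b by -0.50. Smaller differences remained in the uncalled genes, -0.08 in Scnn1a, -0.12 in Slc9a2, -0.13 in Slc9a3, -0.22 in Slc26a3 and -0.39 in Car4, and that of Car1 was 0.14. Relative to the 9 epithelial markers, Atp12a, Aqp8, Scnn1b and Car4 were called, against 0.522% of all genes called lower.

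Transcription factor genes of the epithelium (median -0.03, none of 11 called) included Cdx2 at 0.28 ± 0.088 (adjusted p = 0.20) and Gata6 at -0.12 ± 0.060 (adjusted p = 0.43). Posterior HOX genes, whose levels mark position along the gut, had a median of -0.06 with none of 13 called. Hoxb13, a marker of the most distal colon, differed by -0.20 ± 0.087 (adjusted p = 0.37), and Hoxb9 by 0.18 ± 0.070 (adjusted p = 0.30). Hoxb13 read 10.19, 10.37 and 10.42 in wild type and 9.99, 10.23 and 10.16 in the knockout, with overlapping groups. The part that the dissected segment has in the absorption genes was not tested.

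Marker lists of other cells gave the following summed levels. Macrophages and dendritic cells ran from 8.48 to 8.56 in wild type and from 8.51 to 8.55 in the knockout, T cells from 8.33 to 8.53 and from 8.31 to 8.54, and fibroblasts from 8.61 to 8.86 and from 8.66 to 8.79. The macrophage and dendritic cell list and the T cell list had no marker above the array's median gene on all arrays. The same held for smooth muscle, endothelium, and enteric nerve and glia, and none of the markers of these lists was called. Goblet cell markers summed to 15.35 to 15.40 in wild type and 15.36 to 15.42 in the knockout, with none of 6 called. Of these 6, Spdef (0.28) and Agr2 (0.11) read higher on every knockout array, beside 11.4% of all genes, and 1 read lower on every one, beside 7.98%. Tuft cell markers ran from 9.77 to 9.96 and from 9.99 to 10.04, with none called and 3 of 6 higher on every knockout array, beside 11.4% of all genes. Crypt stem cell markers ran from 11.68 to 11.70 and from 11.51 to 11.63, with none called. Of these, 2 of 7 (28.6%) read lower on every knockout array, beside 7.98% of all genes. They were Cdca7 (-0.23) and Slc12a2 (-0.13), and the other markers of the list had overlapping groups. Slc12a2 was the brightest of the list (mean of 10.89 in wild type) and so weighs most in its sum. Proliferation markers ran from 11.85 to 11.92 and from 11.58 to 11.98, with none called. B and plasma cell markers ran from 10.31 to 10.33 and from 10.16 to 10.25, with none called. Of these, 1 of 5 (20%) read lower on every knockout array, beside 7.98% of all genes. The summed enteroendocrine level was lower in the knockout, from 10.99 to 11.33 against 11.46 to 11.86. Of the 8 markers 1 was called (Pyy, -0.49 ± 0.072, limma's adjusted p = 0.017), against 0.712% of all genes called lower. Pyy and Insl5 (-0.60) read lower on every knockout array, beside 7.98% of all genes. The other markers had overlapping groups, with Chga and Gcg at -0.44 each, Chgb at -0.11, Sst at -0.08, Neurod1 at -0.07 and Cck at -0.002. The neutrophil list ran from 11.82 to 12.20 in wild type and from 10.73 to 11.27 in the knockout, with Ly6g as its 1 called gene of 6 (-1.09 ± 0.15, adjusted p = 0.014) and as its only member above the array's median gene on all arrays. The other 5 genes of the list differed the other way, S100a8 and S100a9 by 0.21 each, Mpo by 0.11, Csf3r by 0.07 and Cxcr2 by 0.06, and the list's median was 0.09. With an array left out, Pyy was called in 1 of 6 fits and Ly6g in 2 of 6. The part of these cells in the absorption genes was not tested.

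For each called absorption gene the 3 genes with the most alike pattern were found, by the root mean square difference between their deviations from their own means over the 6 arrays. Nearest to Atp12a were Asb11 (0.041), Casp14 (0.087) and Slc36a1 (0.091), to Aqp8 Rdh16 (0.075), Slc46a1 (0.076) and again Slc36a1 (0.12), and to Scnn1b Lrrc19 (0.066), Tnfsf10 (0.067) and Lamb3 (0.074). Slc46a1, the proton-coupled folate transporter of the intestine, read 8.67, 8.67 and 8.55 in wild type and 7.72, 7.73 and 8.04 in the knockout, with array 3 nearest to wild type as in Aqp8. Slc36a1, a proton-coupled amino acid transporter gene, read 10.80, 10.80 and 10.71 in wild type and 9.94, 10.05 and 10.22 in the knockout. Asb11 lay below the array's median gene on all arrays. These genes were picked for their likeness, so their values are a description.

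**Figure D4:**
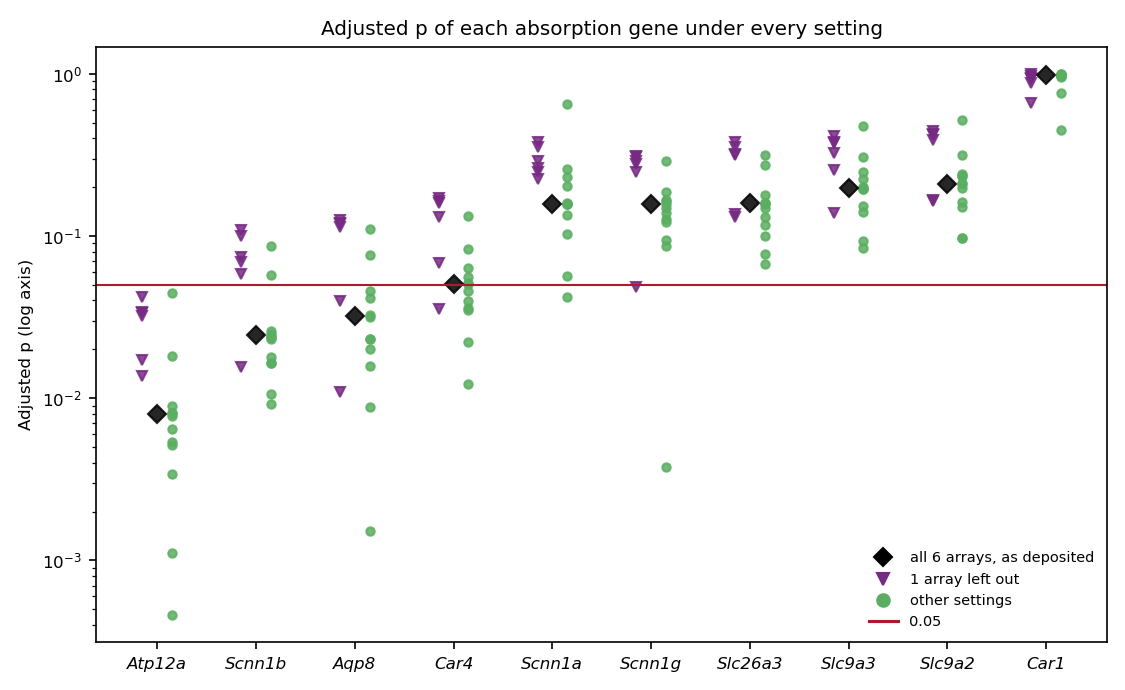
Adjusted p (log axis) of each absorption gene with all arrays as deposited (diamonds), with 1 array left out (triangles) and under the other settings (circles); the red line is 0.05. Atp12a lies under the line in every setting shown, Scnn1a, Scnn1b, Scnn1g, Aqp8 and Car4 on both sides of it, and Car1 far above it. Scnn1a is under it in 1 setting and Scnn1g in 2.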

How the data were processed

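Transcripts were measured in colon epithelium on 6 Affymetrix arrays, 3 a genotype. The authors deposited log2 values from RMA, per the submitters' processing notes. That they are log2 was read from their range (1.72 to 14.07), and the version and build used were not stated. Array medians lay between 6.32 and 6.36, and nothing was normalized again. The annotation gave a single gene for 21789 of 35556 probe sets. Symbols were updated through RefSeq (GRCm38.p6), and a gene was read by its probe set with the highest mean, which gave 19936 genes, with no filter on dim ones.

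The genotype comparison used limma 3.58.1 under R 4.3.3 (lmFit, eBayes, genotype only, two-sided, Benjamini-Hochberg over all genes; called at adjusted p under 0.05), tested first on simulated data. Differences between a pair of genes were tested by exact permutation over arrays. Replicates are arrays, whose number limits the precision; whether they come from separate mice is not stated, so p-values measure the spread between arrays, which may be technical. Summed levels are log2 of the summed linear signals. Tables and figures were made with Python 3.11.15, pandas 2.3.3 and matplotlib 3.10.9.

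The genes and lists were chosen with earlier results of these data known. Named were the 10 genes, Sel1l and the 3 most alike genes of each called member. In each pathway list the called genes and those with the 2 smallest p were named. Hsd11b2, Atp1b1 and the cell type markers given with single values were named after their values were seen, among them Pyy, Ly6g and the other neutrophil genes. Batches were not given, and protein sequences were not used here. Alternatives were quantile normalization, median centring, filters on dim genes, an intensity trend, a robust prior, array weights, a replicate block, the mean of probe sets, all probe sets and each array left out. Levels relative to epithelial or surface markers were added after seeing the data.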

Additional observations from a re-analysis of the deposited data

How the results depend on the processing

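Over 18 alternatives and 10 genes, 153 of 180 values kept their direction and their side of the threshold, 13 lost a call, 10 gained one and 4 changed sign. Atp12a stayed called throughout. The count of genes called lower among the 10 was 1 with all probe sets tested and 1 with the replicate block, 5 with the intensity trend, and 1 to 3 with an array left out. The 1 was Atp12a in each case, and the trend added Car4 and Scnn1a (adjusted p = 0.042). Of all probe sets tested, 0.197% were called lower. The shares of all genes were 0.502% with the block, 1.45% with the trend, and 0.115% to 0.567% with an array left out. The 4 reversals were those of Car1, which was never called: -0.016 with median centring, -0.0024 without knockout array 1, -0.017 without knockout array 2 and -0.086 without wild type array 3 (range -0.086 to 0.061 with an array left out). The difference between the changes of Scnn1b and Scnn1g was -0.035 without knockout array 1 (range -0.035 to 0.372), and that of Slc9a2 and Slc9a3 was -0.023 without wild type array 3 and -0.018 without knockout array 1 (range -0.023 to 0.055).

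Pathway genes called lower numbered 10 with the trend, 2 with the replicate block, 2 without the dimmest 25% and 4 without the dimmest 50% of genes. Of all genes tested, 1.45%, 0.502%, 1.32% and 2.75% were called lower in these settings, in the same order. Over all genes 325 were called, 614 with the trend, 161 with all probe sets, 598 without the dimmest 50%, 512 relative to surface markers, and 69 to 303 with an array left out. Filters test fewer genes, and all probe sets test more; the cause of the other shifts was not tested. Sel1l had adjusted p = 0.073 with all probe sets (change -0.74), and with an array left out its change ran from -0.87 to -0.67, with adjusted p up to 0.087 and the call lost in 4 of 6 fits.

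The labels do not say whether arrays with the same replicate number belong together. Same-numbered arrays had correlations of deviations of -0.10, 0.15 and 0.15 across genes. Arrays of unlike number were not compared, so these values cannot decide whether the numbers pair the arrays. With the replicate block 217 genes were called, and Scnn1b and Aqp8 were not (adjusted p = 0.057 and 0.077). Scnn1b and Scnn1g were the dimmest of the 10, and how far signal near background limits their differences was not tested.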
